A study of Mus musculus with 14 samples.

Results

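The small leucine-rich proteoglycans are secreted core proteins of the connective tissue matrix, and 9 of their genes (Dcn, Lum, Bgn, Fmod, Ogn, Aspn, Prelp, Omd and Podn) were taken by gene symbol from the 24062 genes of the count table. RNA sequencing was performed on 14 libraries of whole tissue from mice of 1 mixed background (C57BL/6, I-129 and FVBN) that received no drug. The 3 control libraries were dorsal root ganglia (DRG) of Nf1fl/fl mice without Cre, and the 11 plexiform neurofibroma (PN) libraries came from DhhCre;Nf1fl/fl mice, 5 of them slow-growing and 6 fast-growing by MRI volume. The floxed Nf1 alleles were therefore shared by all groups, and DhhCre deletes Nf1 in the Schwann cell lineage. Per the study's methods the mice were 9 months old, and a PN was slow-growing when its volume changed by less than 5 mm3 in 2 months and fast-growing when it grew by more than 35 mm3. Sex and batch of single libraries were not given in the sources used here. Each library carried a name of its own in the labels, so the p-values below measure the spread between these samples.

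Proteoglycans of this family share a curved core of leucine-rich repeats that binds collagen fibrils, and most carry chondroitin, dermatan or keratan sulfate chains. Decorin (Dcn) and biglycan (Bgn) bind collagen and growth factors such as TGF-β, asporin (Aspn) is their close relative, and lumican (Lum), fibromodulin (Fmod), Prelp and osteomodulin (Omd) form a second branch whose best known members regulate fibril thickness. Osteoglycin (Ogn) and podocan (Podn) belong to separate branches. In peripheral nerve and in neurofibroma, fibroblasts of the endoneurium, perineurium and epineurium are the best known makers of decorin and lumican.

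Several of the genes lie side by side in the mouse genome. On chromosome 10 (mm10), Dcn (97479609 to 97518143) was followed after 47.0 kb by Lum (97565128 to 97572703), and the family genes Kera and Epyc came next on the same strand. On chromosome 13, Aspn (49544443 to 49567565), Omd (49582462 to 49592822) and Ogn (49608046 to 49624501) stood in a row behind Ecm2, with 14.9 kb between Aspn and Omd and 15.2 kb between Omd and Ogn. On chromosome 1, Prelp (133910304 to 133921414, minus strand) was 115.8 kb from Fmod (134037254 to 134048277, plus strand). Podn (chromosome 4, 108014791 to 108096445, minus strand) and Bgn (chromosome X, 73483602 to 73495933) had no family neighbour. All 9 were annotated as protein-coding, and the values below are counts over the exons of each gene.

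RefSeq (GRCm38.p6) gave the 250 bases before the start for 7 of the 9 genes. The windows of Omd and Ogn are shown because these neighbours had different patterns in the PNs, and that of Epyc, at the upstream of its RefSeq starts, because this relative changed most among the family genes that were higher in PNs. They are read 5′ to 3′ on the plus strand, with any motif searched for in capitals.
Omd, chr13:49582212-49582461: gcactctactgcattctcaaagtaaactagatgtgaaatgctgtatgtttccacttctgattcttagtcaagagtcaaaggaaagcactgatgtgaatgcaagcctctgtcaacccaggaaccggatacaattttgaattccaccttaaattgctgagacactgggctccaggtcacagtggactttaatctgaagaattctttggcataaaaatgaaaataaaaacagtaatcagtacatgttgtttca
Ogn, chr13:49607765-49608014: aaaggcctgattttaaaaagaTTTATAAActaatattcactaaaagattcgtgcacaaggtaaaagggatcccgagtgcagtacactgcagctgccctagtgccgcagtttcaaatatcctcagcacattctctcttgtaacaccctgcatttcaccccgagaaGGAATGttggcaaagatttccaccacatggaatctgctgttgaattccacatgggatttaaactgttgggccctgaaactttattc
Epyc, chr10:97643818-97644067: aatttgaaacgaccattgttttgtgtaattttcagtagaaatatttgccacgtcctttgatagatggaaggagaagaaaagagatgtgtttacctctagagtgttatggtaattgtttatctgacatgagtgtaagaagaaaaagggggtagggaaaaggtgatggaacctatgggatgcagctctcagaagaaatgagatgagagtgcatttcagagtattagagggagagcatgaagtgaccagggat
The motifs were chosen after the sequences had been seen and were searched on both strands at any position of the window. A match is thus of letters only, and its function was not tested. They were the TATA box with the letters TATAAA, the CCAAT box, the GC box with the letters GGGCGG, the AP-1 motif with the letters TGANTCA, and the TEAD motif with the letters GGAATG. The Ogn window held TATAAA on both strands, in overlapping positions, 229 and 227 bases before the start, and GGAATG 86 bases before it. The Omd window and this Epyc window held none of the 5, while the window of the other Epyc start, chr10:97646853-97647102, held the TEAD motif on the minus strand 188 bases before that start. Among 32851 windows of the same length, 12.4% held the TATA box, 33.8% the CCAAT box, 32.7% the GC box, 6.75% the AP-1 and 12.6% the TEAD motif. The Omd window was 38.4% G and C and the Ogn window 42%, against a median of 52.4% over all windows.

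Libraries held 9596773 to 17594164 counts in genes, and 3 counts corresponded to 0.166 to 0.317 counts per 1000000 (CPM, scaled by TMM factors). Reads of the ribosomal gene Rn45s made up 16.2% to 17.6% of the control libraries, 3.48% to 15.3% of the slow-growing and 7.24% to 18.1% of the fast-growing PN libraries. Nf1 itself was 0.54 (SE 0.16) higher on the log2 scale in all PNs than in controls (adjusted p = 0.0215, edgeR), with groups that overlapped. It was not called in slow-growing (0.54, adjusted p = 0.127) or fast-growing PNs alone (0.46, adjusted p = 0.0718, edgeR). This gene-level count cannot check the floxed exons. The controls and the PNs also differed in other tissue. The summed level of 15 skeletal muscle markers was 4008 to 16358 CPM in controls, 38.0 to 3711 CPM in slow-growing and 90.4 to 2443 CPM in fast-growing PNs, and that of 13 fat cell markers was 4415 to 6672, 24.4 to 3569 and 21.0 to 315 CPM. Both sums were higher in every control than in any PN, so tissue genotype and adjoining tissue cannot be told apart in a comparison with controls. In bulk tissue, fewer cells of a type and less RNA per cell cannot be told apart either.

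Decorin was the most abundant of the 9 transcripts in every library. Per kilobase of transcript, it made up 42.1% ± 2.54 (SD, n = 3) of the summed CPM per kb of the 9 genes in controls, 46.5% ± 7.57 (n = 5) in slow-growing and 50.2% ± 5.12 (n = 6) in fast-growing PNs. In controls the order of mean level per kb was Dcn (324), Ogn (141), Bgn (118), Lum (68.7), Prelp (65.1), Omd (15.7), Fmod (10.1), Podn (9.31) and Aspn (9.09). Among neighbours in this order, Lum and Prelp, Fmod and Podn, and Podn and Aspn differed by less than the SD of either, while Ogn and Bgn differed by less than the SD of Ogn (72.0) but more than that of Bgn (17.8). In fast-growing PNs Lum (409 CPM per kb) had moved to the second place, ahead of Bgn (259), Ogn (111) and Prelp (82.8), while Omd stood at 5.64 and Fmod at 2.14. The level of the 9 genes added up to 761 ± 268 CPM per kb in controls, 967 ± 379 in slow-growing and 1771 ± 522 in fast-growing PNs. With lengths taken from all annotated exons in place of the longest transcript, Bgn fell from 118 to 51.6 CPM per kb in controls, below Prelp and Lum, so its place in the order rests on the annotation used.

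**Figure D1:**
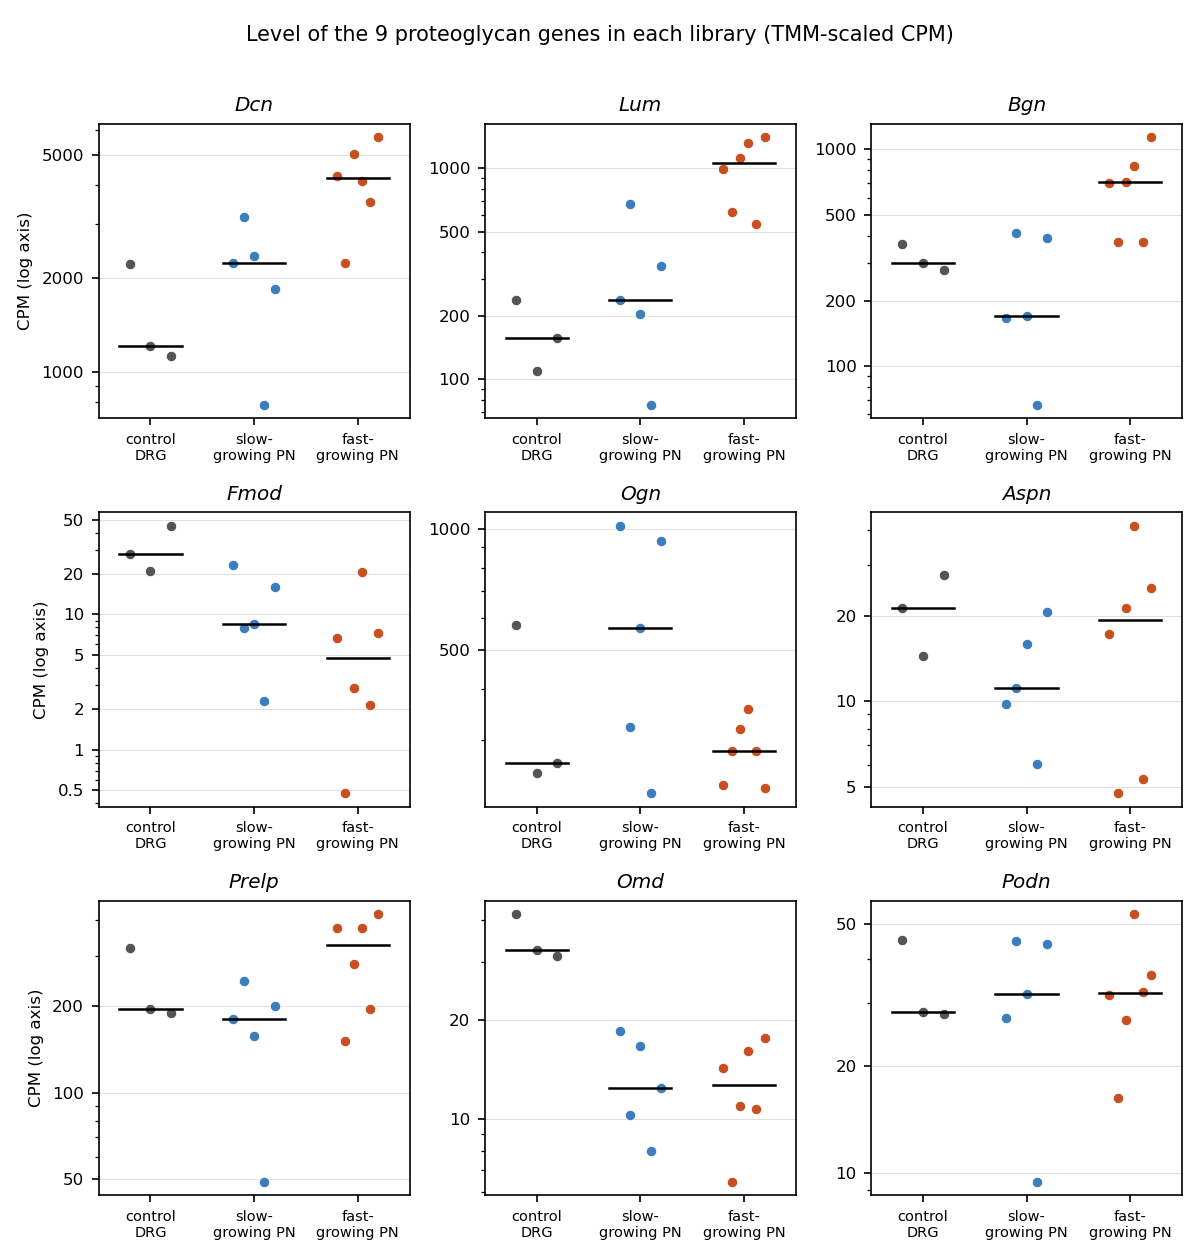
TMM-scaled CPM (log axis) of each of the 9 genes in 3 control DRG, 5 slow-growing PN and 6 fast-growing PN libraries, 1 point per library and a bar at the group median. Dcn, Lum and Bgn were higher in all 6 fast-growing PNs than in all 3 controls, and Omd was lower in all 11 PNs than in all 3 controls.

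Lumican was the member that rose most in fast-growing PNs. It was measured at 238, 110 and 157 CPM in the controls. The slow-growing PNs had 238 (1079), 675 (1198A), 205 (1202), 75.5 (1203) and 345 CPM (1206). The fast-growing PNs ranged from 547 to 1406 CPM with a median of 1056. All fast-growing PNs were thus above all controls, while the slow-growing group spread across both. Lum was 5.80-fold higher in fast-growing PNs than in controls, a log2 difference of 2.54 (SE 0.41, adjusted p = 0.00157, edgeR quasi-likelihood test with Benjamini-Hochberg adjustment), and passed the threshold of 0.05 whichever of the 9 libraries was left out. In slow-growing PNs the log2 difference from control was 0.84 (SE 0.62, 95% interval -0.56 to 2.24, adjusted p = 0.368, edgeR).

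Decorin, which restrains collagen fibril growth and binds TGF-β, also rose in fast-growing PNs. Controls had 2219, 1211 and 1126 CPM. Slow-growing PNs had 2239 (1079), 3147 (1198A), 2358 (1202), 785 (1203) and 1856 CPM (1206). Fast-growing PNs ranged from 2241 to 5695 CPM, with a median of 4206. The lowest fast-growing PN, 1071, was only just above the highest control, DRG3. The log2 difference between fast-growing PNs and controls was 1.41 (SE 0.35, adjusted p = 0.0133, edgeR), or 2.66-fold, and it no longer passed without control DRG4 (adjusted p = 0.0625) or DRG5 (0.0573). In slow-growing PNs it was 0.42 (95% interval -0.60 to 1.44, adjusted p = 0.537, edgeR).

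Biglycan, the X-linked relative of decorin, had 368, 300 and 276 CPM in controls. Its slow-growing values were 166 (1079), 412 (1198A), 170 (1202), 66.3 (1203) and 391 CPM (1206), and the fast-growing PNs ranged from 373 to 1139 CPM with a median of 707. Fast-growing PNs lay above all controls and the slow-growing PNs lay on both sides of them. The log2 difference of fast-growing PNs from controls, 1.09 (SE 0.38), narrowly missed the threshold (adjusted p = 0.0519, edgeR). It passed without fast-growing PN 1071 (adjusted p = 0.0230) or 1214 (0.0280), with DESeq2 (0.0137), and with length and GC trends removed (0.0356). It did not pass without DRG4 (0.146) or DRG5 (0.140) or with all libraries in 1 fit (0.116), and the log2 difference turned to -1.16 with muscle and fat markers as covariates (adjusted p = 0.916). Aspn, the third gene of this branch, stood at 21.2 ± 6.69 CPM in controls, 12.7 ± 5.67 in slow-growing and 19.2 ± 13.7 in fast-growing PNs, with groups that overlapped and log2 differences from control of -0.77 (95% interval -1.66 to 0.12) and -0.19 (-1.60 to 1.23).

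Osteomodulin, a keratan sulfate proteoglycan best known from mineralized tissue, fell in both kinds of PN. The controls had 41.8, 32.6 and 31.3 CPM. The slow-growing PNs had 18.5 (1079), 10.3 (1198A), 16.6 (1202), 8.03 (1203) and 12.4 CPM (1206), and the fast-growing PNs ranged from 6.46 to 17.6 CPM with a median of 12.6. Every PN was below every control. The log2 difference from control was -1.45 (SE 0.28, adjusted p = 0.0150) in slow-growing and -1.51 (SE 0.28, adjusted p = 0.00327) in fast-growing PNs by edgeR, and -1.45 (SE 0.25, adjusted p = 0.000905) with all PNs as 1 group. The fast-growing and slow-growing PNs differed by -0.06 (95% interval -0.67 to 0.56, adjusted p = 0.922, edgeR). Without DRG4 or DRG5, the slow-growing comparison gave an adjusted p of 0.0539 or 0.05002. The difference in fast-growing PNs passed without any single library.

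With the mean levels of the muscle and fat markers as covariates, neither the Omd, Dcn nor Lum differences passed, and no gene of the 16037 tested in fast-growing PNs against controls did either. The fitted Omd difference was negative in that model, at -0.61 in slow-growing and -2.80 in fast-growing PNs. Lum was at 0.87 in fast-growing PNs but at -0.57 with all PNs as 1 group, and Dcn turned to -0.87 in fast-growing PNs. Since the muscle and fat sums do not overlap between controls and PNs, the model cannot separate adjoining tissue from group, and its signs are no test. The part of adjoining tissue in these differences was not tested. The cartilage, bone and tendon markers, a tissue in which Omd is known, summed to 125 to 261 CPM in controls, 91.7 to 404 CPM in slow-growing and 226 to 1090 CPM in fast-growing PNs. Of the 11 genes of this list that were tested, 1 was higher (Thbs4) and 3 were lower in fast-growing PNs (Sost, Comp and Dmp1). That is 36.4% called, close to the 31.4% of all genes tested in that comparison. The median log2 difference of these markers was -0.34 in fast-growing and -0.55 in slow-growing PNs. Their part in the Omd difference was not tested. Thbs4, a tendon matrix protein, was 1.83 higher on the log2 scale in fast-growing PNs (adjusted p = 0.0373, edgeR). It made up much of the summed level and of its rise, at 131 ± 52.9 CPM in controls and 477 ± 310 in fast-growing PNs. Comp, a cartilage and tendon matrix protein, was at 16.0 ± 11.3 CPM in controls against 2.98 ± 1.49 in fast-growing PNs.

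Fibromodulin and Prelp, of the same branch as Lum and Omd, gave no call by edgeR. Fibromodulin, which binds collagen at the same site as lumican, had 28.1, 21.0 and 45.3 CPM in controls. The slow-growing PNs had 23.2 (1079), 7.88 (1198A), 8.52 (1202), 2.28 (1203) and 16.0 CPM (1206). The fast-growing PNs ranged from 0.476 to 20.7 CPM with a median of 4.74, all below the controls. Its log2 difference of -2.28 (SE 0.83) in fast-growing PNs had an adjusted p of 0.0629 (edgeR), which became 0.0221 with DESeq2, 0.0139 with limma-voom, 0.0490 without 1071 and 0.00840 without 1191, but 0.205 without DRG5, 0.111 with length and GC trends removed and 0.107 without 1053. The log2 difference in slow-growing PNs was -1.47 (95% interval -2.85 to -0.09, adjusted p = 0.145, edgeR). Prelp, a heparin-binding member, stood at 235 ± 73.4 CPM in controls, 167 ± 73.3 in slow-growing and 299 ± 109 in fast-growing PNs, and its groups overlapped in all comparisons.

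Osteoglycin, also known as mimecan, had its highest mean in slow-growing PNs. Controls had 576, 249 and 263 CPM, and slow-growing PNs had 1018 (1079), 323 (1198A), 567 (1202), 222 (1203) and 932 CPM (1206). Fast-growing PNs kept to a narrow range of 228 to 358 CPM, with a median of 282. PNs 1079, 1202 and 1206 were above the whole fast-growing group, and 1198A and 1203 were not. The log2 difference of fast-growing from slow-growing PNs was -1.11 (SE 0.36, adjusted p = 0.1096, edgeR). It passed without 1203 (adjusted p = 0.0344) and with DESeq2 (0.0292), but in no other alternative fit. Podn, a collagen-binding member, showed small differences, with means of 33.8 ± 9.73, 31.6 ± 14.5 and 32.8 ± 12.2 CPM in controls, slow-growing and fast-growing PNs.

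**Figure D2:**
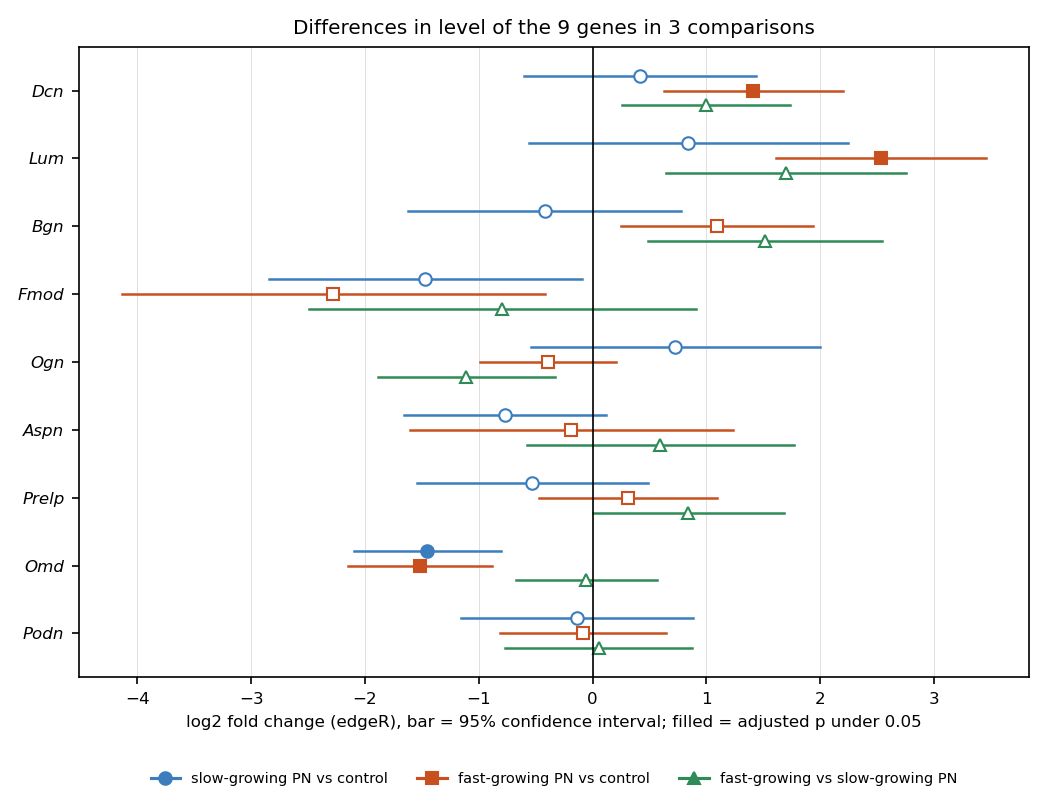
Log2 fold change of each gene in 3 comparisons (edgeR), with the 95% confidence interval as a bar and a filled symbol where the adjusted p was under 0.05. Filled symbols stand at Dcn and Lum (higher) and Omd (lower) for fast-growing PNs against controls and at Omd alone for slow-growing PNs against controls.

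Counted over the 9 genes, 0 were higher and 1 was lower in slow-growing PNs than in controls by edgeR, where 11.3% of the 15714 genes tested were called (4.12% higher and 7.13% lower). At an unadjusted p under 0.05 these were 0 and 2, with Fmod as the second, against 30.3% of genes in either direction. In fast-growing PNs 2 were higher and 1 was lower, against 31.4% of 16037 genes tested (14.8% higher and 16.7% lower), so the share of members called was close to that of all genes. Groups that did not overlap were found for 3 higher members (Dcn, Lum, Bgn) and 2 lower ones (Fmod, Omd) in fast-growing PNs, against 17.2% and 15.2% of all genes tested, and for Omd alone in slow-growing PNs, against 12.4% lower. The median log2 difference of the members was -0.42 in slow-growing and -0.09 in fast-growing PNs, beside 0.04 and 0.02 over all genes tested. With all PNs as 1 group, Omd alone was called, against 26.3% of 16283 genes. The slow-growing and the fast-growing comparison share their 3 control libraries.

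Fast-growing and slow-growing PNs were compared directly, since this asks whether the levels go with growth. Adjoining tissue was not equal here either. Between these groups the median log2 difference was -3.67 over the fat and -1.58 over the skeletal muscle markers, with 0 of them called. The part of adjoining tissue in this comparison was not tested. By edgeR 0 of the 9 members were called, in a comparison where 1.27% of 15465 genes were. Unadjusted p-values were under 0.05 for 5 members, which were Lum (log2 difference 1.70, SE 0.48, adjusted p = 0.0810), Bgn (1.52, SE 0.47, adjusted p = 0.101), Dcn (0.997, SE 0.34, adjusted p = 0.125), Prelp (0.84, SE 0.38, adjusted p = 0.243) and Ogn (-1.11, given above). The share of all genes with such a p was 20.4%. DESeq2 called 4 of them, Lum (adjusted p = 0.00874), Bgn (0.0210), Dcn (0.0443) and Ogn, where it called 10.2% of 15427 genes. Of the 7 alternative fits that left out no library, DESeq2 was the only 1 that called any of these 4. The groups of PNs overlapped for all 9 members, while 3.01% of genes tested did not overlap. Leaving out slow-growing PN 1198A, whose Lum level lay within the fast-growing range, brought Lum to 2.21 (adjusted p = 0.0162, edgeR). That omission also raised the number of genes called from 196 to 1194. It was the only 1 of 11 omissions in which Lum passed.

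Many of the low values came from 1 PN, 1203, which was the lowest of the 5 slow-growing PNs for 9 of 9 members and the lowest of all 11 PNs for 6 of them. Fast-growing PN 1071 was the lowest of all PNs for the other 3 (Fmod, Aspn and Omd). PN 1203 also held the highest sum of neuronal markers, 12647 CPM against 2606 to 7711 in the other slow-growing PNs, and the lowest sum of fibroblast markers, 1178 CPM against 2713 to 7027. Much of that fibroblast sum was Apod, with a mean of 2256 ± 1976 CPM in the slow-growing group. The part of these cell type shares in the proteoglycan levels was not tested. With all PNs as 1 group and 1203 left out, Dcn (1.18, adjusted p = 0.0309) and Lum (2.15, adjusted p = 0.0191) passed against controls (edgeR), where they had 1.08 (adjusted p = 0.111) and 2.03 (adjusted p = 0.0607) with it.

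The make-up of the proteoglycan transcripts differed between groups beyond the total. Lum contributed 7.44% to 10.5% of the summed CPM per kb of the 9 in controls and 17.2% to 26.7% in fast-growing PNs. Among slow-growing PNs only 1198A (20.9%) was within the fast-growing range, the others lying at 8.77% to 12.4%. Prelp supplied 8.27% to 9.03% in controls and 3.85% to 5.74% in the 11 PNs. These ranges did not overlap although the Prelp level itself did. Omd supplied 1.74% to 2.41% in controls and at most 1.07% in any PN, and Podn supplied 1.16% to 1.30% in controls and at most 1.07%. Ogn supplied 16.1% to 21.0% in controls, 9.54% to 35.7% in slow-growing and 3.63% to 10.7% in fast-growing PNs. These shares do not depend on how libraries are scaled, but they sum to the whole, so a share falls where another gene is higher. No test was run on them.

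**Figure D3:**
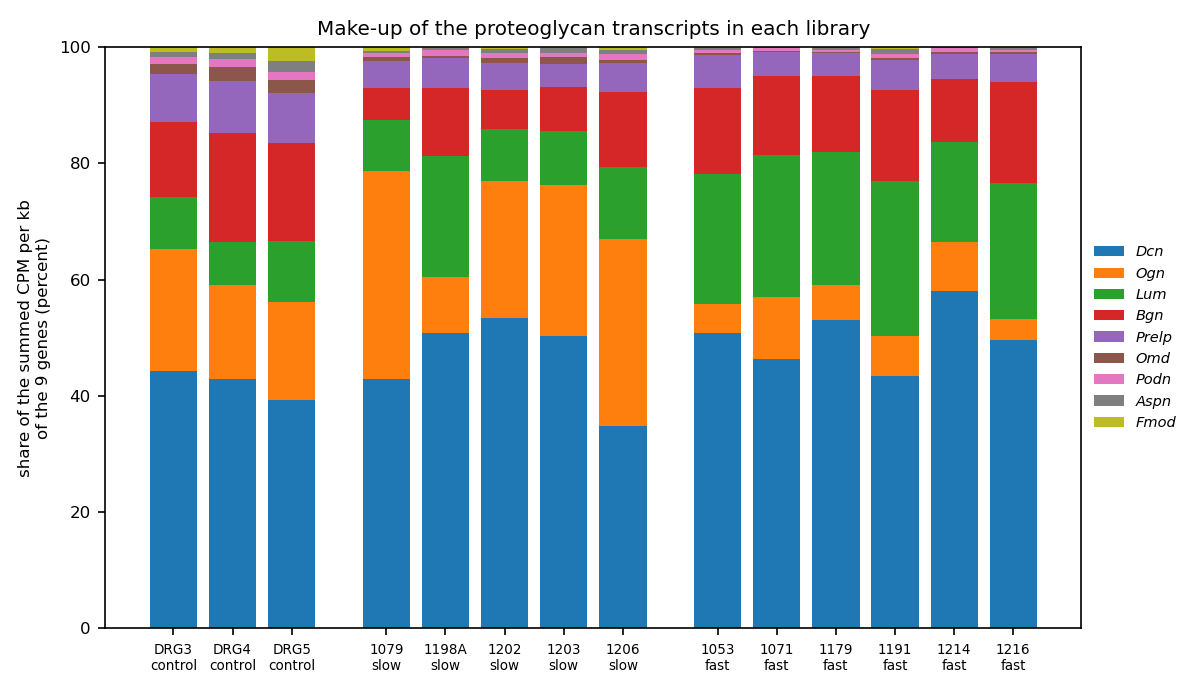
Share (percent) of each of the 9 genes in their summed CPM per kb of transcript, 1 stacked bar per library, grouped as control, slow-growing PN and fast-growing PN. The Lum segment is 17.2% to 26.7% in the fast-growing PNs against 7.44% to 10.5% in controls, and the Ogn segment is at most 10.7% in the fast-growing PNs.

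Values of neighbouring genes are given side by side, and differences between neighbours were not tested. On chromosome 13, Omd was lower in all PNs, while Ogn, 15.2 kb downstream, had log2 differences of 0.73 in slow-growing and -0.39 in fast-growing PNs that did not pass. Aspn and Ecm2, on the other side of Omd, were not called either (Ecm2 -0.38 and 0.59, Aspn -0.77 and -0.19). On chromosome 10, Dcn, Lum and Epyc were all called higher in fast-growing PNs, with log2 differences of 1.41, 2.54 and 4.04, and Kera between them had too few counts to be tested. On chromosome 1, Prelp had 0.31, Fmod -2.28 and Optc -3.10 in the same comparison, and -0.53, -1.47 and -0.97 in slow-growing PNs, where none of the 3 was called.

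**Figure D4:**
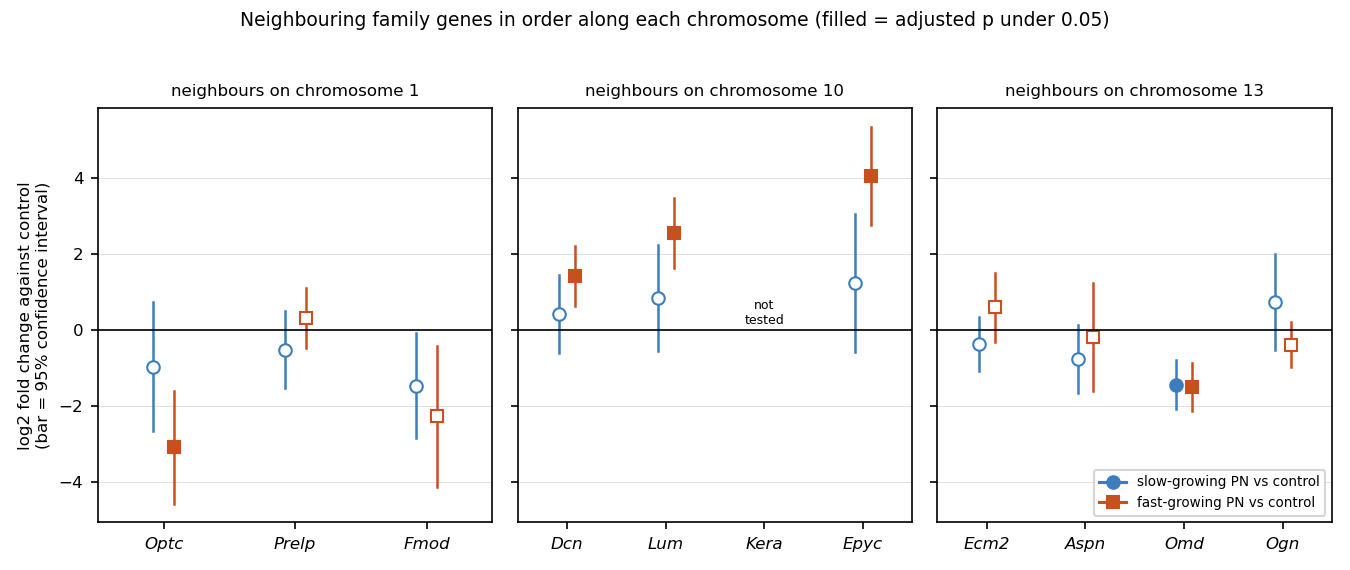
Log2 fold change against control (edgeR) of family genes in their order along 3 chromosomes, for slow-growing (circles) and fast-growing PNs (squares), with 95% confidence intervals and filled symbols where the adjusted p was under 0.05. Dcn, Lum and Epyc on chromosome 10 are filled for fast-growing PNs, and Omd on chromosome 13 is filled for both.

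Epiphycan (Epyc), a relative of osteoglycin known from cartilage, had the largest rise in the family. It was measured at 1.81, 2.12 and 1.58 CPM in controls, or 21, 23 and 15 counts. Slow-growing PNs had 1.82 (1079), 13.9 (1198A), 2.74 (1202), 1.55 (1203) and 2.31 CPM (1206), and fast-growing PNs ranged from 13.5 to 58.2 CPM with a median of 31.5. The slow-growing PNs other than 1198A were thus near the controls, and 1198A was within the fast-growing range. The log2 difference of fast-growing PNs from controls was 4.04 (SE 0.57, adjusted p = 0.000765, edgeR), or 16.5-fold, and that of fast-growing from slow-growing PNs was 2.80 (SE 0.65, adjusted p = 0.0562, edgeR). Exons of Epyc overlap those of the noncoding gene Gm10754 on the opposite strand by 1041 bases, and the strand setting of the counting was not given in the sources used here, so reads of both cannot be told apart. The same holds for 350 bases of Prelp, shared with Gm15851, and for 7 bases of Aspn, shared with Cenpp.

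Among the 9 other family genes, 8 were tested in fast-growing PNs against controls, with 1 called higher (Epyc) and 3 lower, where 14.8% and 16.7% of all genes were. Chad, a cartilage matrix protein, had 19.3, 1.39 and 55.5 CPM in controls and at most 1.83 CPM in any PN (log2 difference -4.90, SE 0.96, adjusted p = 0.00411 in fast-growing and -5.45, SE 1.07, adjusted p = 0.0153 in slow-growing PNs, edgeR). The control DRG4 lay within the range of the fast-growing PNs. Optc, known from the eye, had 0.864 to 1.69 CPM in controls and at most 0.296 CPM in fast-growing PNs (-3.10, SE 0.66, adjusted p = 0.00629, edgeR), which is at most 4 counts. In slow-growing PNs it had at most 0.406 CPM in 4 and 1.83 CPM (19 counts) in 1206, above every control, and was not called (-0.97, adjusted p = 0.390, edgeR). Podnl1, a close relative of Podn, had 0.432, 2.96 and 2.75 CPM in controls and 0.387 to 0.756 CPM in fast-growing PNs (-1.82, SE 0.54, adjusted p = 0.0299). Ecm2, Chadl, Nyx and Tsku were not called in any comparison, and Kera was not tested, with 8, 0 and 42 counts in controls and at most 4 in any PN.

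**Figure D5:**
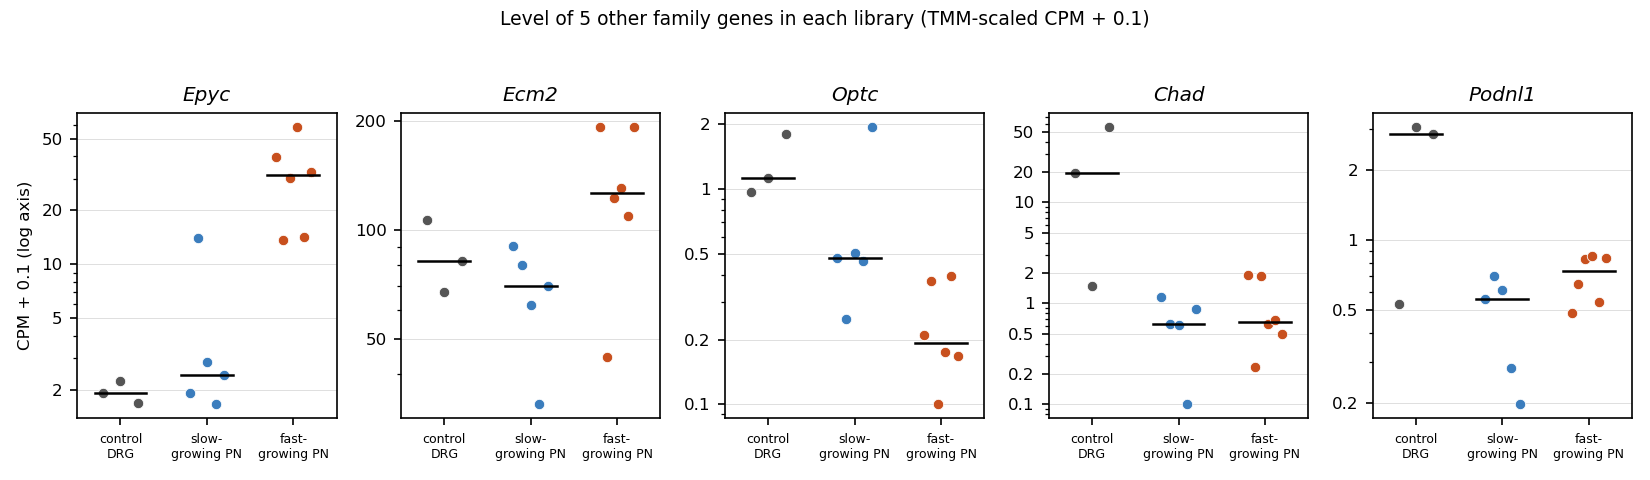
TMM-scaled CPM plus 0.1 (log axis) of 5 other family genes in each library, with a bar at the group median. Epyc lies between 13.5 and 58.2 CPM in the 6 fast-growing PNs and at 1.58 to 2.12 CPM in controls, and 1 slow-growing PN (1198A, 13.9 CPM) lies among the fast-growing ones.

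Genes that act with the proteoglycans were counted by list. Of 14 collagens of fibrils and fibril surfaces tested in fast-growing PNs against controls, 10 were higher and 1 was lower. That is 78.6% called, against 31.4% of all genes tested. Their median log2 difference was 1.42, beside 0.02 over all genes. Col5a2, which sets fibril diameter with its partner chains, had 55.0 ± 14.3 CPM in controls, 97.3 ± 61.7 in slow-growing and 450 ± 181 in fast-growing PNs (log2 difference from control 2.99, adjusted p = 0.000389 in fast-growing PNs, and 2.21 from slow-growing PNs, adjusted p = 0.0449, edgeR). Col11a1, a fibril-nucleating chain, was 2.76 higher on the log2 scale (adjusted p = 0.000878). In slow-growing PNs the median of these 14 was 0.30, and Col5a2 differed from control by 0.79 (adjusted p = 0.325, edgeR). Of 18 enzymes of collagen processing and crosslinking, 9 were higher and 1 was lower in fast-growing PNs (55.6% called, against the same 31.4%). Among the higher ones were the prolyl hydroxylase P4ha3 (2.79), the procollagen proteinases Bmp1 (2.32) and Adamts2 (1.76) and the lysyl oxidase Loxl3 (1.45). P4ha3 was called in slow-growing PNs as well (1.94, adjusted p = 0.0145).

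The enzymes that build the sugar chains were counted in the same way. Of 21 genes for chondroitin and dermatan sulfate chains, 6 were higher and 0 lower in fast-growing PNs (28.6% called, against 31.4% of all genes tested), including the xylose kinase Fam20b (0.63, adjusted p = 0.00375) and the chain-initiating enzyme Csgalnact1 (0.93, adjusted p = 0.00983), and the median log2 difference was 0.25. The polymerase Chsy1 was called in fast-growing PNs against controls (0.67, adjusted p = 0.0384) and against slow-growing PNs (0.95, adjusted p = 0.0484). Of 8 genes for keratan sulfate, the chain carried by lumican, fibromodulin and osteomodulin, 2 were higher and 2 lower (50% called). The lower ones were the sulfotransferase Chst1, with 11.02 ± 3.87 CPM in controls and 1.68 ± 0.42 in fast-growing PNs (-2.76, adjusted p = 0.000178), and the sialyltransferase St3gal3 (-0.65, adjusted p = 0.00606). The higher ones were B4galt4 (1.10, adjusted p = 0.00788) and St3gal2 (0.57).

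Of 20 receptors and growth factors reported to bind these proteoglycans, 5 were higher and 1 was lower in fast-growing PNs, or 30% against the 31.4% called over all genes. P2rx7, a receptor through which soluble biglycan has been described to signal, was higher (1.65, adjusted p = 0.000150), as were the integrin chains Itga2 (2.36) and Itgb1 (0.79), and the VEGF receptor Kdr was lower (-1.99, adjusted p = 0.000604). Of 9 proteases that can cut the core proteins, 3 were higher, among them Mmp2 (2.18) and Mmp14 (1.53), and Mmp13 was lower (-5.29, adjusted p = 0.00255). Mmp2 and Mmp14 also passed against slow-growing PNs (1.97 and 1.78, both adjusted p = 0.0449, edgeR).

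Markers of the cell types in the tissue are given beside the proteoglycans. The summed level of 12 fibroblast markers was 1569 to 3076 CPM in controls, 1178 to 7027 CPM in slow-growing and 5202 to 10667 CPM in fast-growing PNs, and none of the 12 was at 0 in all libraries. Apod alone averaged 852 ± 507 CPM in controls, 2256 ± 1976 in slow-growing and 6341 ± 1573 in fast-growing PNs. It made up much of this sum and of its rise. Of the 12 markers, 5 were higher in fast-growing PNs than in controls and 2 were lower, and their median log2 difference was -0.14, and -0.27 in slow-growing PNs. Dpt (-3.09, adjusted p = 0.0462) and Clec3b (-2.33, adjusted p = 0.0290), named after their values were seen, were the lower ones (edgeR). Apod rose by 2.86, Col15a1 by 2.33 and the fibroblast receptor Pdgfra by 1.16. Over all genes tested in this comparison 31.4% were called, 14.8% higher and 16.7% lower. Of 6 endoneurial fibroblast markers 3 were higher (Etv1, Plxdc1 and Wif1), and of 8 perineurial markers 3 were higher (Cldn1, Ptch1 and Moxd1). The perineurial share, 37.5%, was close to that of all genes called. Of 6 satellite glia markers 3 were higher and 1 was lower, and of 12 Schwann cell markers 6 were higher and 0 lower in fast-growing PNs. Of 10 pericyte and smooth muscle markers 1 was higher and 7 were lower, and of 9 endothelial markers 0 were higher and 6 were lower. Neuronal markers summed to 1577 to 5790 CPM in controls, 2606 to 12647 in slow-growing and 34.1 to 6934 in fast-growing PNs, and macrophage markers to 161 to 603, 50.7 to 450 and 250 to 741 CPM. The part of these cell types in the proteoglycan levels was not tested.

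Likeness of pattern was measured as the root mean square distance between log2 CPM profiles over the 14 libraries, each centred on its own mean. Among 13950 genes, Pdgfra was the nearest to Dcn (0.218), Lamb2, a basement membrane laminin, to Prelp (0.152), Ltbp1, a TGF-β binding protein, to Bgn (0.212) and Atp8b1 to Lum (0.251). Secisbp2l was the nearest to Ogn (0.244), Ehd2 to Podn (0.264), the lactate transporter Slc16a1 to Omd (0.306), Svep1 to Aspn (0.423) and Ackr3 to Fmod (0.787). Slc16a1 had 150 ± 2.79 CPM in controls, 60.5 ± 13.9 in slow-growing and 52.1 ± 14.2 in fast-growing PNs. For no member was another member the nearest gene. By distance, Prelp and Podn were the closest members (0.431), and Fmod was the farthest from its nearest member, Omd (1.10). The profiles were not scaled, so this distance also follows each gene's own spread. The root mean square of the centred profile was largest for Fmod (1.66) and smallest for Podn (0.616). By rank among all genes, the nearest member stood highest for Bgn (Prelp, rank 52 of 13950), Fmod (Omd, 69) and Lum (Dcn, 141). Ogn and Omd had ranks of 3369 and 2803 for the member nearest to them. Gpc6, Pltp, Arhgef5, Heg1 and Fgd5 were nearest to the mean profile of the 9, and over the 11 PNs alone 1 of these 5, Arhgef5, stayed among the 5 nearest.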

How the data were processed

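Total RNA of whole DRG or PN tissue was amplified (Ovation RNA-Seq System v2) and sequenced by the authors. Per the labels' processing notes, CASAVA 1.4, FastQC 0.11.0, TopHat2 2.0.9, featureCounts 1.5.2 and edgeR 3.16.5 were used with mm10. The authors deposited raw counts per gene symbol for the 14 libraries, which were used here, and a table of log2 values for 16382 genes, which was not used. Groups were taken from the sample labels.

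Counts were filtered (filterByExpr), scaled by TMM and tested with edgeR 4.0.16 (glmQLFit and glmQLFTest, R 4.3.3) on the libraries of each comparison, with Benjamini-Hochberg adjustment over all genes tested and a threshold of 0.05. Intervals of 95% used the quasi-likelihood degrees of freedom. The procedure was also run on simulated counts with 200 genes changed, against 5043 genes called in fast-growing PNs. That run cannot show how it behaves with tissue differences as wide as these, and nothing here rests on it. Depth limits and floors cover counting error only, since amplified reads are not independent molecules. Alternatives used DESeq2 1.42.0, limma 3.58.1 (voom), RLE size factors, no filter, all 14 libraries in 1 fit, marker scores (mean log2 of CPM plus 1) as covariates, removal of length and GC trends, a threshold of 0.01, and leaving out each library. Of the 24062 symbols, 22750 matched GENCODE M21.

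The members, gene lists and tests were chosen with earlier results of these data known. Named genes were all 9 members, the 9 other family genes, at most 4 genes of lowest p among those called in each list (otherwise the 2 of highest level), Nf1, the gene nearest to each member and the 5 nearest to their mean, among genes whose log2 CPM averaged 1 or more.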

Additional observations from a re-analysis of the deposited data

Results flagged for a closer look

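Among 32 groups of 5 or 6 libraries examined for a value far from the others, 2 stood out, and about 1 in 20 such groups would by chance. Prelp in slow-growing PN 1203 was 49.1 CPM, while the other 4 slow-growing PNs had 158 to 245 CPM. The same PN was the lowest of its group for all 9 members. Epyc in slow-growing PN 1198A was 13.9 CPM, while the other 4 had 1.55 to 2.74 CPM. PN 1198A also had the highest Lum level of its group, 675 CPM.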

How the results depend on the processing

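The Lum and Omd calls in fast-growing PNs against controls held under every alternative except the muscle and fat covariates, under which no member passed in any comparison. With these covariates the genes called went from 1769 to 0 in slow-growing PNs (1018 at an unadjusted p under 0.05, edgeR), from 5043 to 0 in fast-growing PNs (1145), from 196 to 0 between the PNs (1598) and from 4283 to 468 with all PNs, and the members called went to 0 from 1, 3 and 1. Under them log2 differences changed sign in slow-growing PNs (Fmod 0.39, Aspn 0.15, Prelp 0.10, Podn 0.46), in fast-growing PNs (Dcn -0.87, Bgn -1.16, Prelp -1.42), between the PNs (Omd 0.12) and with all PNs (Dcn -0.21, Lum -0.57, Bgn -1.84, Prelp -1.18). The summed muscle and fat levels do not overlap between controls and PNs. In the slow-growing comparison the count was 3529 with DESeq2, 3280 with all libraries in 1 fit, 1079 with length and GC trends removed and 565 at 0.01 (0 members). It was 2874 at 0.01 in fast-growing and 2181 with all PNs. Between the PNs it was 130 with RLE, 1570 with DESeq2, 34 with limma, 423 with all libraries and 2 at 0.01, and the share called higher was 63.3%, against 79.4% with limma, 52.0% with all libraries and 50.2% with trends removed. In the slow-growing comparison that share was 36.6%, against 48.5% with all libraries. DESeq2 called 5 members in fast-growing PNs, 4 between the PNs and 2 with all PNs, where limma and the fit of all libraries also called 2. Between the PNs DESeq2 called 10.2% of all genes. In fast-growing PNs and with all PNs edgeR called 31.4% and 26.3% of all genes, and the shares under these alternatives are not given here. Those member counts are thus no result about the members. Podn changed sign with trends removed (fast-growing 0.073, all PNs 0.025), and Prelp with all PNs under RLE (-0.018), DESeq2 (-0.018), limma (-0.13) and all libraries (-0.035). The cause of these changes was not tested.

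Leaving out 1 library gave 599 to 2454 genes in the slow-growing comparison (lowest without DRG5), 3342 to 5247 in the fast-growing (lowest without DRG5), 2061 to 4779 with all PNs (lowest without DRG5) and 2 to 1194 between the PNs (highest without 1198A), and 0 to 1, 2 to 5, 1 to 3 and 0 to 1 members. Signs changed for Podn (-0.29 to 0.13 slow-growing, -0.29 to 0.15 fast-growing, -0.18 to 0.22 between the PNs, -0.19 to 0.20 all PNs), Ogn (-0.60 to 0.078) and Aspn (-0.57 to 0.10) in fast-growing PNs, Omd between the PNs (-0.19 to 0.12) and Prelp with all PNs (-0.11 to 0.31). No paired analysis was possible because the groups share no mice or replicate numbers in the labels.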
